A study of Mus musculus with 2 samples.

Results

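The genes described here are 9 members of the Notch pathway, namely the ligands Dll4, Dll1, Jag1 and Jag2, the receptors Notch1 and Notch4, and the targets Hey1, Hey2 and Hes1. They were chosen by name, and all 9 were found among the 17139 genes that both libraries list. The data are droplet-based single-cell RNA sequencing of CD31+ endothelial cells (ECs) sorted from implanted Lewis lung carcinoma (LLC) tumours, grown from a mouse lung carcinoma line in C57BL/6 mice, which the methods give as C57BL/6 J males of 8 to 9 weeks at implantation. The tumour of 1 mouse was injected with PBS, the solvent, and the tumour of 1 mouse with cGAMP, a cyclic dinucleotide that activates the innate immune adaptor STING, and ECs were collected the day after injection according to the methods. Both mice carried tumours of the same established line, which limits the model. Because each condition is 1 mouse and 1 library, mouse, sort, library and treatment cannot be told apart, no test was made, and every interval covers counting error only.

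Notch signals pass between touching cells. A ligand of the Delta-like or Jagged family on the sending cell binds a Notch receptor on the receiving cell, the receptor is cut at the membrane, and its inner part enters the nucleus, where it joins the DNA-binding protein RBPJ and switches on repressors of the Hey and Hes families. In growing vessels, leading tip cells are known for high Dll4, which holds neighbouring cells back from becoming tip cells, and arterial ECs are known for sustained Notch signalling with Hey1 and Hey2.

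The PBS library held 2517 ECs with 92081146 unique molecular identifiers (UMIs, counts of captured mRNA molecules), a median of 29780 per cell. From the cGAMP-injected tumour came 1340 ECs and 63366746 UMIs, with a higher median of 41177.5, so that these cells were more deeply counted. The libraries shared 1 cell barcode. The label of the cells held in both libraries, since the 8 listed endothelial markers summed to 3930 CPM (UMIs scaled to a library of 1000000) in the PBS library and 4108 CPM in the cGAMP library, and Pecam1, the gene of CD31, had a UMI in 2509 and 1335 cells. The 8 leucocyte markers found in the files summed to 15.1 and 40.7 CPM, and the median mitochondrial share of a cell was 4.49% (PBS) and 2.87% (cGAMP). The part of these differences in the results below was not tested.

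ECs were grouped into 8 clusters without using any Notch gene, and 7 of them were named from marker genes of tip, stalk (venous), arterial and proliferative ECs. Each is called by leading genes or cell cycle phase and by its class. In the PBS and cGAMP libraries there were 741 and 309 Gal/Chga tip-like ECs, 49 and 23 Bnip3/Ankrd1 tip-like ECs, 578 and 241 Gja5/Nts arterial-like ECs, 65 and 53 Lpl/Gja4 arterial-like ECs, 331 and 331 Ackr1/Selp stalk-like ECs, 219 and 150 S-phase proliferative-like ECs and 489 and 183 mitotic proliferative-like ECs. A further cluster, with 45 and 50 cells and Igfbp5 and Ctsh as its leading genes, raised all 12 stalk markers and 4 arterial markers, with 1 marker of each class among its 10 leading genes, and was left unnamed. Its 4 lymphatic markers summed to 155 CPM in the PBS library and 30.2 CPM in the cGAMP library, and their part in its values was not tested.

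Over all ECs, Jag2 was lower and Dll1 higher in the cGAMP library by more than 1.5-fold, and the most widely detected members, Dll4, Notch1 and Hes1, differed by less than that. Of the 9 members, 8 reached 5 CPM in either library, the level needed to be counted. Of these, 1 was at least 1.5-fold higher, against a background of 4.53% of the 9509 genes at that level, 1 was at least 1.5-fold lower, against 7.41%, and 6 lay between. The 8 members had a median log2 ratio (cGAMP over PBS) of -0.07 and all 9509 genes had -0.08, so the members as a list lay where genes in general lay. The plot of ratios over all ECs shows each member with its counting interval and with its range over the ways of processing.

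**Figure D1:**
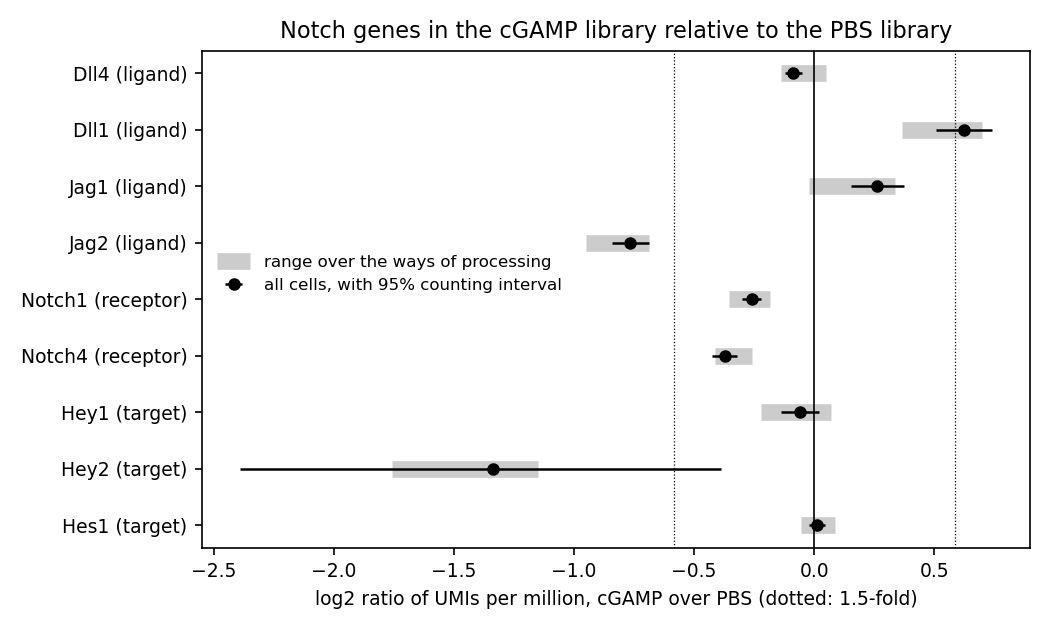
The log2 ratio of CPM in the cGAMP library over the PBS library (x axis) is drawn for each of the 9 members (y axis), with black bars for the 95% counting interval, grey bars for the range over the ways of processing and dotted lines at 1.5-fold. Jag2 lies at -0.77 with its whole grey bar beyond the dotted line, Dll1 lies at 0.62 with a grey bar that reaches back to 0.36, and Hes1 lies at 0.01.

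Dll4, the Delta-like ligand of tip and arterial ECs, lies on chromosome 2 at 119325784 to 119335962 on the plus strand of GRCm38. The 250 bases before its start in RefSeq (GRCm38.p6, chr2:119325534-119325783, plus strand) are printed because Dll4 is the ligand by which tip cells are known. No capitals appear, since they would mark the RBPJ motif GTGGGAA or the interferon-stimulated response element (GAAA, any 2 bases, GAAA) on either strand, and neither is in this window.
Dll4 promoter: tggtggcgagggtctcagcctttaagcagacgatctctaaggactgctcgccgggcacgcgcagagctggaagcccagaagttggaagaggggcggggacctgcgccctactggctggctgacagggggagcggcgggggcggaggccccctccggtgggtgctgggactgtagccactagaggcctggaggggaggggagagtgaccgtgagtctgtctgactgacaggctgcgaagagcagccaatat

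Dll4 stood at 161.5 CPM in the PBS library and 152.1 CPM in the cGAMP library, a log2 ratio of -0.09 (95% interval -0.12 to -0.05). With every cell thinned to 5000 UMIs to make depths equal, 48.6% of PBS-treated ECs and 46.7% of cGAMP-treated ECs had a Dll4 UMI. The shares were 2.17% and 6.18% for Lyz2, a leucocyte gene taken as a gauge of free RNA, although other genes can have another background. The ratio was close to 0, and it was 0.05 with the proportions of the states held equal, so no direction is read from it.

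Dll4 differed far more between states than between libraries. In the PBS library it was highest in Gja5/Nts arterial-like ECs at 222 CPM and in Gal/Chga tip-like ECs at 199.7 CPM, and lowest in stalk-like ECs at 55.9 CPM and the Igfbp5/Ctsh cluster at 62.2 CPM, whose intervals overlapped, a 3.97-fold span. In the cGAMP library the same 2 states led, at 232 CPM and 217 CPM with overlapping intervals, and the Igfbp5/Ctsh cluster alone was lowest at 22.3 CPM, a 10.4-fold span. Lpl/Gja4 arterial-like ECs had far less, at 69.7 CPM and 106.2 CPM, so the arterial-like states did not share a Dll4 level.

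Within states, Dll4 was higher in the cGAMP library in 5 of 8 states, with an interval clear of 0 in 4, and lower in 3, all clear of 0. In stalk-like ECs it was 55.9 CPM in the PBS library and 85.4 CPM in the cGAMP library, a log2 ratio of 0.61 (0.45 to 0.77). That ratio turned to -0.69 when cells were clustered without integrating the libraries, which left 256 and 154 stalk-like ECs in place of 331 and 331. In the Igfbp5/Ctsh cluster it was 62.2 CPM and 22.3 CPM, a log2 ratio of -1.48 (-2.15 to -0.84). There the median cell held no Dll4 UMI in either library, and the cell with the most Dll4 held 31 of the 63 PBS UMIs. Without the top cell of each library the ratio was -0.75 (-1.54 to 0.04), no longer clear of 0. In Lpl/Gja4 arterial-like ECs the Dll4 ratio was 0.61 (0.20 to 1.02), from 83 and 138 UMIs, and 0.67 without the top cell of each library. At 5000 UMIs per cell, 14.0% (6.26% to 25.8%) of 57 PBS-treated and 43.1% (29.35% to 57.75%) of 51 cGAMP-treated Lpl/Gja4 ECs had a Dll4 UMI.

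Dll1, a second Delta-like ligand, lies on chromosome 17 at 15367354 to 15376872 on the minus strand. It had 1175 UMIs or 12.8 CPM in the PBS library and 1246 UMIs or 19.7 CPM in the cGAMP library, which is 1.54-fold higher and a log2 ratio of 0.62 (0.51 to 0.74). At 5000 UMIs per cell, 6.58% and 9.65% of ECs had a UMI, not far above the 2.17% and 6.18% of Lyz2. The difference stayed above 0 under every way of processing, but the ratio was 0.36 with state proportions held equal and 0.53 after thinning, both short of 1.5-fold.

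Dll1 was concentrated in the Igfbp5/Ctsh cluster, whose 45 cells held 13.1% of the Dll1 UMIs of the PBS library. It reached 152.1 CPM there in the PBS library and 106.4 CPM in the cGAMP library, while the other 7 states lay between 6.46 and 23.8 CPM in the PBS library and between 11.7 and 23.4 CPM in the cGAMP library. The median Igfbp5/Ctsh cell held 111.2 CPM and 95.9 CPM, against 0 over all ECs in both libraries, so the level there was not that of a few cells. Among the larger states the highest Dll1 was in stalk-like ECs, at 23.8 CPM and 23.4 CPM, and the lowest in the PBS library was in Gal/Chga tip-like ECs at 6.46 CPM.

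In Gal/Chga tip-like ECs, Dll1 was 6.46 CPM in the PBS library and 14.6 CPM in the cGAMP library, a log2 ratio of 1.17 (0.89 to 1.45). It was also higher, with intervals clear of 0, in Gja5/Nts arterial-like ECs at 14.3 and 21.03 CPM and in mitotic proliferative-like ECs at 8.89 and 12.6 CPM. In stalk-like ECs the ratio was -0.02 (-0.29 to 0.24). The Igfbp5/Ctsh cluster went the opposite way, at -0.52 (-0.85 to -0.18). Without that cluster the ratio over all ECs was 0.66.

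Jag1, a Jagged ligand known to compete with Dll4 for Notch receptors, lies on chromosome 2 at 137081456 to 137116644 on the minus strand. It had 16.2 CPM in the PBS library and 19.4 CPM in the cGAMP library, a log2 ratio of 0.26 (0.15 to 0.37). The share of cells at 5000 UMIs was 7.32% and 7.54%, in the cGAMP library little above the 6.18% of Lyz2, and the ratio after thinning was -0.02. Thinning also gives each cell equal weight, and the mean of the CPM of each cell, without thinning, gave a ratio of 0.07. The difference was thus small or absent when cells were weighted equally.

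By state, Jag1 was highest in the small Bnip3/Ankrd1 tip-like state, whose leading genes are known to respond to low oxygen, at 41.97 CPM in the PBS library and 40.5 CPM in the cGAMP library. Its interval overlapped that of the Igfbp5/Ctsh cluster in the PBS library and that of Gal/Chga tip-like ECs in the cGAMP library. The cGAMP value rests on 38 UMIs, of which the top cell held 16. Without the top cell of each state it was 25.7 CPM, below the 29.0 CPM of Gal/Chga tip-like ECs. Gal/Chga tip-like ECs had 17.3 CPM and 29.8 CPM, a log2 ratio of 0.79 (0.60 to 0.97), and were the only state of the 8 whose interval for Jag1 was clear of 0. At 5000 UMIs per cell the shares of these ECs with a UMI were 8.03% (6.17% to 10.2%) and 10.8% (7.54% to 14.8%), which overlap. In Lpl/Gja4 arterial-like ECs the values were 18.5 and 9.24 CPM from 22 and 12 UMIs, with an interval of -2.15 to 0.08.

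Jag2, the other Jagged ligand, lies on chromosome 12 at 112907819 to 112929776 on the minus strand, and was lower in every state. It had 52.9 CPM in the PBS library and 31.1 CPM in the cGAMP library, a log2 ratio of -0.77 (-0.84 to -0.69) or 0.588 of the PBS level. At 5000 UMIs per cell, 23.9% of PBS-treated ECs and 12.8% of cGAMP-treated ECs had a UMI. The ratio ranged from -0.95 to -0.69 over the ways of processing and was past 1.5-fold in each of them.

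Jag2 was lower in the cGAMP library in all 8 states, and all 8 intervals were clear of 0. The same held for 1.43% of the 9509 genes, which were not matched to Jag2 in level. The largest difference was in stalk-like ECs, at 34.1 CPM in the PBS library and 15.6 CPM in the cGAMP library, a log2 ratio of -1.13 (-1.39 to -0.87). The smallest was in Gal/Chga tip-like ECs, at 48.1 CPM and 32.4 CPM, a log2 ratio of -0.57 (-0.72 to -0.43). The order of the states hardly differed between the libraries. Lpl/Gja4 arterial-like ECs came first at 134.4 and 79.3 CPM, Gja5/Nts arterial-like ECs second at 87.8 and 58.8 CPM, and stalk-like ECs last, so that Jag2 was an arterial-weighted ligand with or without cGAMP.

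**Figure D2:**
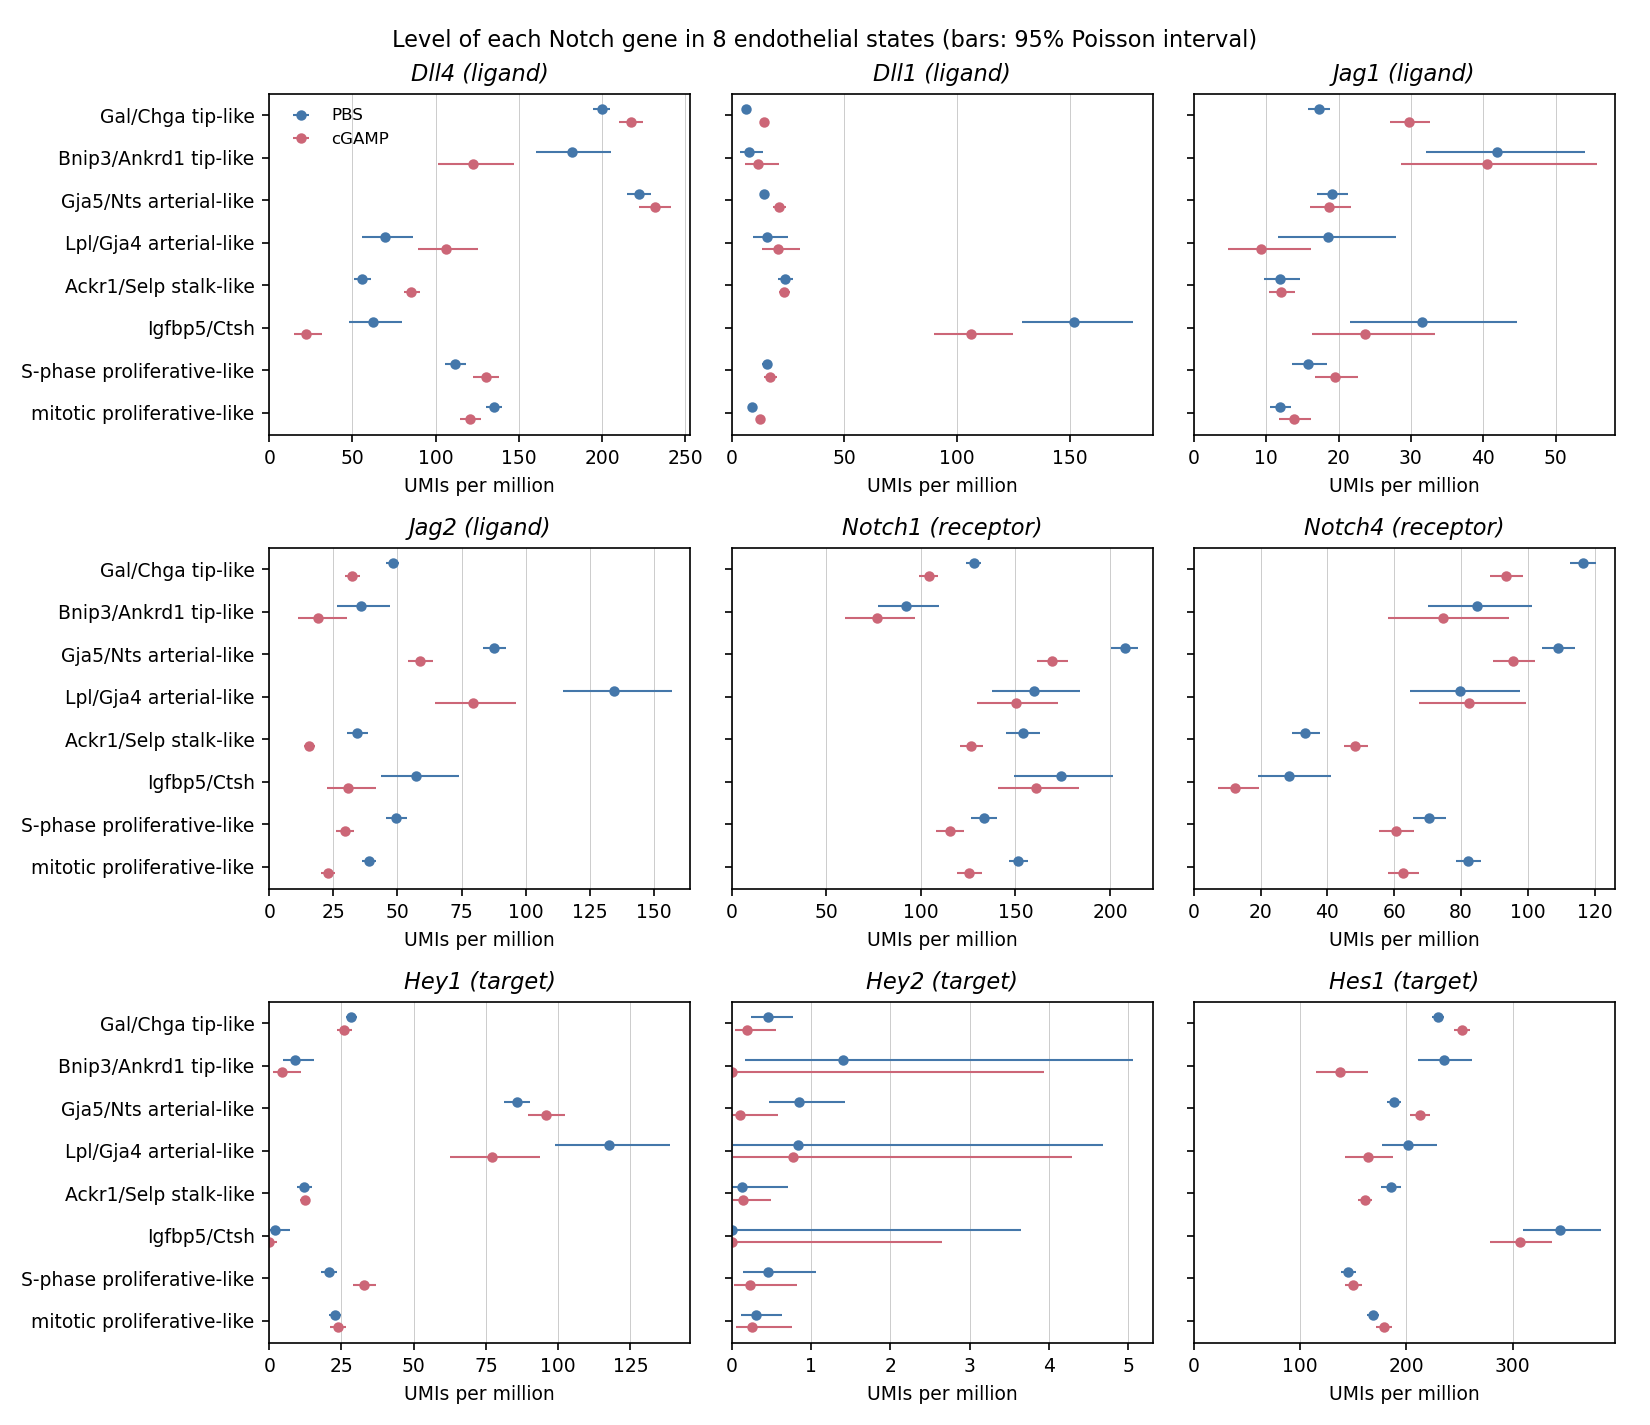
Each panel shows the level of 1 member in CPM (x axis, from 0, with its own scale) in the 8 endothelial states (y axis) for the PBS library in blue and the cGAMP library in red, with 95% Poisson intervals. Dll1 stands out in the Igfbp5/Ctsh cluster at 152.1 and 106.4 CPM, and Hey1 in both arterial-like states. The red points of Jag2 and Notch1 lie to the left of the blue points in all 8 states.

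Notch1, the receptor needed for vessel growth and arterial identity, lies on chromosome 2 at 26457903 to 26516663 on the minus strand. It had 151.1 CPM in the PBS library and 126.2 CPM in the cGAMP library, a log2 ratio of -0.26, and 51.4% and 44.0% of ECs had a UMI at 5000 UMIs per cell. The ratio lay between -0.35 and -0.18 under every way of processing, short of 1.5-fold.

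Notch1 was lower in the cGAMP library in 8 of 8 states, as were 15.0% of the 9509 genes, with 5 intervals clear of 0, and its state ratios lay between -0.30 and -0.09. Gja5/Nts arterial-like ECs had the most, at 207.6 and 169.2 CPM, and Bnip3/Ankrd1 tip-like ECs the least, at 92.3 and 76.8 CPM, a span of 2.25-fold and 2.20-fold. The order of all 8 states was the same in both libraries, although the intervals of most neighbours in that order overlapped.

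Notch4, a receptor found mainly in ECs, lies on chromosome 17 at 34564268 to 34588503 on the plus strand. It had 92.2 CPM in the PBS library and 71.2 CPM in the cGAMP library, a log2 ratio of -0.37, and 33.4% and 26.7% of ECs had a UMI at 5000 UMIs per cell. Its levels followed those of Dll4 across states, with the highest values in Gal/Chga tip-like ECs at 116.5 and 93.5 CPM and in Gja5/Nts arterial-like ECs at 109.1 and 95.7 CPM. The lowest were in stalk-like ECs at 33.4 and 48.4 CPM and in the Igfbp5/Ctsh cluster at 28.6 and 12.2 CPM.

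Within states Notch4 was lower in the cGAMP library in 6 of 8, with 5 intervals clear of 0. The exception with a clear interval was stalk-like ECs, where the log2 ratio was 0.54 (0.33 to 0.75). As for Dll4, it did not hold without integration, where it was -0.11. The lowest ratio, -1.23 in the Igfbp5/Ctsh cluster, rests on 29 and 17 UMIs, of which 1 PBS cell held 12, and without the top cell of each library it was -0.71 (-1.81 to 0.38).

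Hey1, a transcriptional repressor and Notch target of arterial ECs, lies on chromosome 3 at 8663359 to 8667256 on the minus strand. It had 35.4 CPM in the PBS library and 34.0 CPM in the cGAMP library, a log2 ratio of -0.06 (-0.14 to 0.02), and 14.8% and 13.9% of ECs had a UMI at 5000 UMIs per cell. Over all ECs no difference was detectable at this depth.

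Hey1 was highest in both arterial-like states. Lpl/Gja4 arterial-like ECs had 117.6 CPM in the PBS library and 77.0 CPM in the cGAMP library, and Gja5/Nts arterial-like ECs had 85.7 and 95.8 CPM, while each of the other 6 states lay at or below 28.3 CPM in the PBS library and 32.8 CPM in the cGAMP library. Gja5/Nts arterial-like ECs alone held 43.1% of the PBS library's Hey1 UMIs. The Igfbp5/Ctsh cluster, where Dll1 and Hes1 were highest, had 2 Hey1 UMIs with PBS and 0 with cGAMP. The arterial-like states went opposite ways with cGAMP, at a log2 ratio of 0.16 (0.04 to 0.28) in Gja5/Nts ECs and -0.61 (-0.997 to -0.232) in Lpl/Gja4 ECs, and S-phase proliferative-like ECs had 20.6 and 32.8 CPM, a ratio of 0.67 (0.42 to 0.93). At 5000 UMIs per cell, 7.80% (4.61% to 12.2%) and 8.73% (4.73% to 14.5%) of the S-phase ECs had a Hey1 UMI, so at equal depth the shares overlapped. The shares also overlapped in Gja5/Nts ECs, at 32.8% (28.9% to 36.9%) and 36.0% (29.9% to 42.4%). In Lpl/Gja4 ECs they were 40.35% (27.6% to 54.2%) and 23.5% (12.8% to 37.5%), which overlap as well. Over both arterial-like states together the ratio was 0.09, and it turned to -0.42 at a Louvain resolution of 1.2.

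Hey2, the relative of Hey1 that is also known from arteries, lies on chromosome 10 at 30832359 to 30842801 on the minus strand and was close to undetected. Its count was 44 UMIs with PBS and 12 UMIs with cGAMP, or 0.478 and 0.189 CPM, below the 5 CPM needed to be counted. At 5000 UMIs per cell, 0.45% and 0.15% of ECs had a UMI, below the 2.17% and 6.18% of Lyz2. Hey2 was thus very low, and the level of Lyz2 cannot show whether the Hey2 UMIs are free RNA. No comparison between states was made from so few UMIs. Of the 7 members with a RefSeq window, Hey2 was the only 1 whose 250 bases before the start held either motif. The Notch1 window lies before a start 12841 bases inside the gene span given above, and 1 of the 2 Dll1 windows before a start 1049 bases inside, so the window before the outer start of Notch1 was not searched. The Hey2 site is printed for that reason, with the RBPJ motif in capitals as it reads on the reverse complement (GRCm38.p6, chr10:30842973-30843001, minus strand, 207 bases before the start).
Hey2 site: gcgcggtggcaTTCCCACgcctctgccaa

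The RBPJ motif was in 5.42% and the interferon-stimulated response element in 2.98% of 32851 promoter windows of the same length. The members matched no window with the latter, and no entry was matched for Hey1 and Hes1. A match is a description of letters and not of binding.

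Hes1, a repressor and direct Notch target that other pathways also switch on, lies on chromosome 16 at 30064384 to 30067796 on the plus strand. It had 194.4 CPM in the PBS library and 195.9 CPM in the cGAMP library, a log2 ratio of 0.01 (-0.02 to 0.04), and 53.2% and 53.4% of ECs had a UMI at 5000 UMIs per cell. This interval is narrow, so Hes1 is among the members whose level over all ECs was best fixed by the counts.

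Hes1 was highest in the Igfbp5/Ctsh cluster, at 344.7 CPM in the PBS library and 306.8 CPM in the cGAMP library, and otherwise lay between 145.4 and 235.1 CPM and between 137.7 and 252.2 CPM. Its state ratios fell on both sides of 0. It was higher in the cGAMP library with an interval clear of 0 in Gal/Chga tip-like ECs at 0.13, Gja5/Nts arterial-like ECs at 0.18 and mitotic proliferative-like ECs at 0.09, and lower in stalk-like ECs at -0.21, Lpl/Gja4 arterial-like ECs at -0.30 and Bnip3/Ankrd1 tip-like ECs at -0.77 (-1.08 to -0.47). The stalk-like ratio turned to 0.13 without integration, and the mitotic one was not clear of 0 without the top cell of each library. The Bnip3/Ankrd1 state holds 23 cGAMP-treated ECs, of which 1 carried 680 of its 722 leucocyte marker UMIs, and the ratio was -0.82 without the 1 cell of each library with 10 or more such UMIs.

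**Figure D3:**
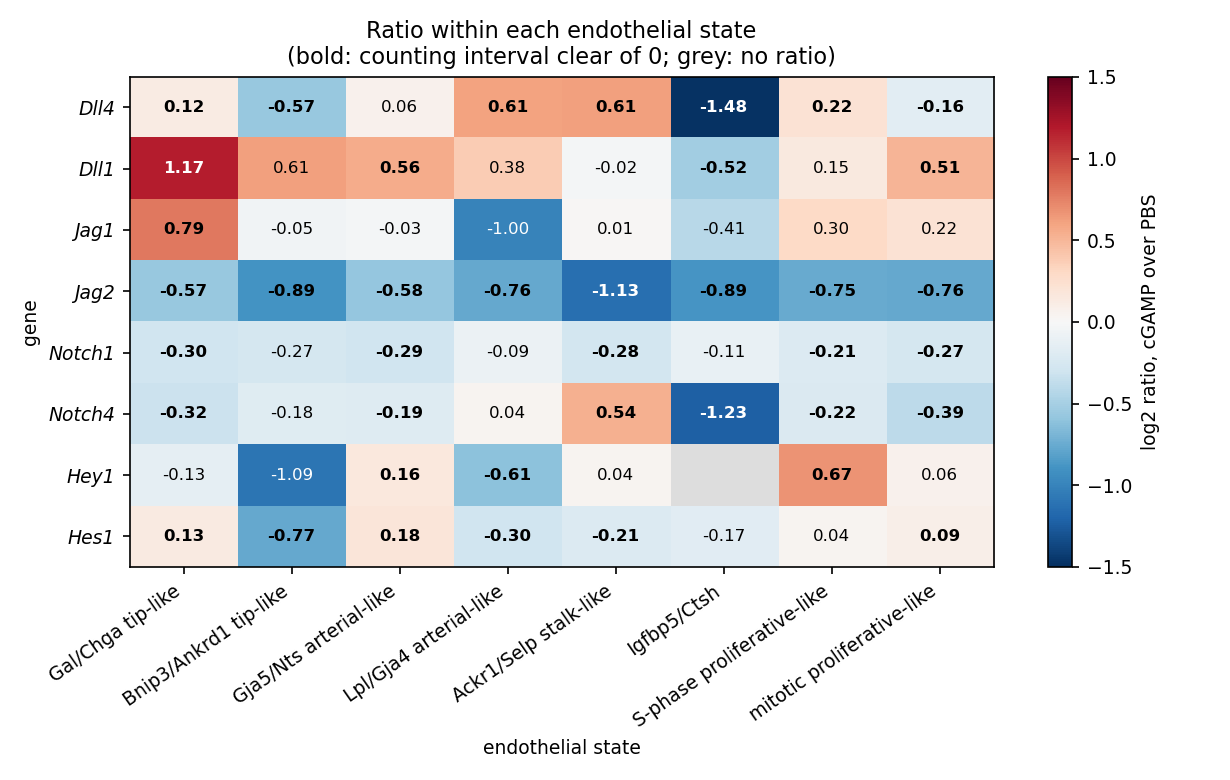
The grid gives the log2 ratio of cGAMP over PBS for 8 members (rows) in each of the 8 endothelial states (columns), coloured from blue (lower) to red (higher), in bold where the 95% counting interval is clear of 0 and in grey where a library had no UMI. The rows of Jag2 and Notch1 are blue throughout, while Dll4, Dll1, Jag1, Notch4, Hey1 and Hes1 hold cells of both colours.

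The state ratios are less firm than their counting intervals. Of the 40 state ratios of 8 members with an interval clear of 0, 37 stayed clear without the cell of each library with most UMIs of the member. In 7 of the 40 the shares of cells at 5000 UMIs also had intervals that did not overlap, namely Jag2 in 4 states, Dll1 in Gal/Chga tip-like ECs, Dll4 in Lpl/Gja4 arterial-like ECs and Notch4 in stalk-like ECs. Neither count was made by state over all counted genes, so neither sets the members apart from genes in general. Without integration the stalk-like ratios of 6 members changed sign, and those of Jag2 and Notch1 did not.

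Across states, some members varied together. Dll4 and Notch4 had a Pearson r of 0.91 between their log2 levels over 14 points (7 states in 2 libraries, leaving out the Bnip3/Ankrd1 state with fewer than 30 cells), and Jag2 and Notch1 had r = 0.60. Without the Igfbp5/Ctsh cluster these were 0.81 and 0.65 over 12 points. Some other pairs changed more with that cluster. Jag2 and Hey1 rose from 0.50 to 0.84 without it, the highest r of any pair over the 12 points. Notch4 and Hey1 fell from 0.89 to 0.63 without it, where Hey1 had 2 and 0 UMIs, and Hes1 and Hey1 went from -0.57 to 0.24. These points share libraries and depths, and the values are descriptions only.

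Among 6045 genes of at least 20 CPM, those most like a member over the same 14 points were named by rank. For Dll4 they were Gm14005, Flt4 and Gpx8 (r = 0.94, 0.94 and 0.92), and for Notch4 they were Cd93, Tmem120b and Flt4 (0.96, 0.96 and 0.95). For Jag2 they were Tnks1bp1, Mxra7 and Sh2b3 (0.98, 0.95 and 0.95), and for Notch1 Bmpr2, Ldb2 and Mef2c (0.92, 0.89 and 0.88). For Hey1 they were Tspan8, Sema7a and Hlx (0.95, 0.95 and 0.93, and 0.84, 0.81 and 0.76 without the Igfbp5/Ctsh cluster), and for Hes1 Pafah1b1, Gpr107 and Zfp622 (0.91, 0.86 and 0.86, and 0.72, 0.81 and 0.84 without it). Flt4, the receptor of the vascular growth factor VEGF-C, stood in both the Dll4 and the Notch4 lists. Many further genes had nearly the same r, so the ranks are not firm.

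At the level of cells, ligand and receptor were found in the same ECs. At 10000 UMIs per cell, a UMI of both Dll4 and Notch1 was found in 49.2% (PBS) and 42.7% (cGAMP) of ECs, close to the 48.5% and 42.2% given by the product of the separate shares. Dll4 and Hey1 were found together in 17.9% and 16.4% of ECs, above their products of 15.1% and 12.6%, and Hey1 was detected in 27.0% of Dll4+ and 14.6% of Dll4- PBS-treated ECs. Dll1 and Dll4 went the other way, with both in 6.08% and 7.79% of ECs against products of 7.40% and 9.64%. Inside each of the larger states this gap was smaller. In the PBS library it was 4.51% against 4.56% in Gal/Chga tip-like ECs and 6.27% against 6.78% in stalk-like ECs. In S-phase ECs the share lay above the product, at 6.94% against 6.54%. The shares over all ECs mix states, and a UMI missing from a cell is not absence of the gene.

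The higher share of Hey1 in ECs with Dll4 was also found inside the Gja5/Nts arterial-like state. There Hey1 was detected in 48.5% of ECs with a Dll4 UMI and in 27.3% of those without it in the PBS library, and in 53.3% and 29.6% in the cGAMP library. In Gal/Chga tip-like ECs the shares were 22.6% and 17.0% in the PBS library and 18.7% and 10.7% in the cGAMP library. It did not hold in every state, since in PBS-treated stalk-like ECs the shares were 7.84% and 7.96%. The Igfbp5/Ctsh cluster cannot decide this, because Hey1 was almost absent there. At this depth Hey1 was detected in 2.44% of its 41 cells from the PBS library. In the cGAMP library the share was 0% over 47 cells of the cluster, whether or not they had Dll4. No test was made over cells.

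**Figure D4:**
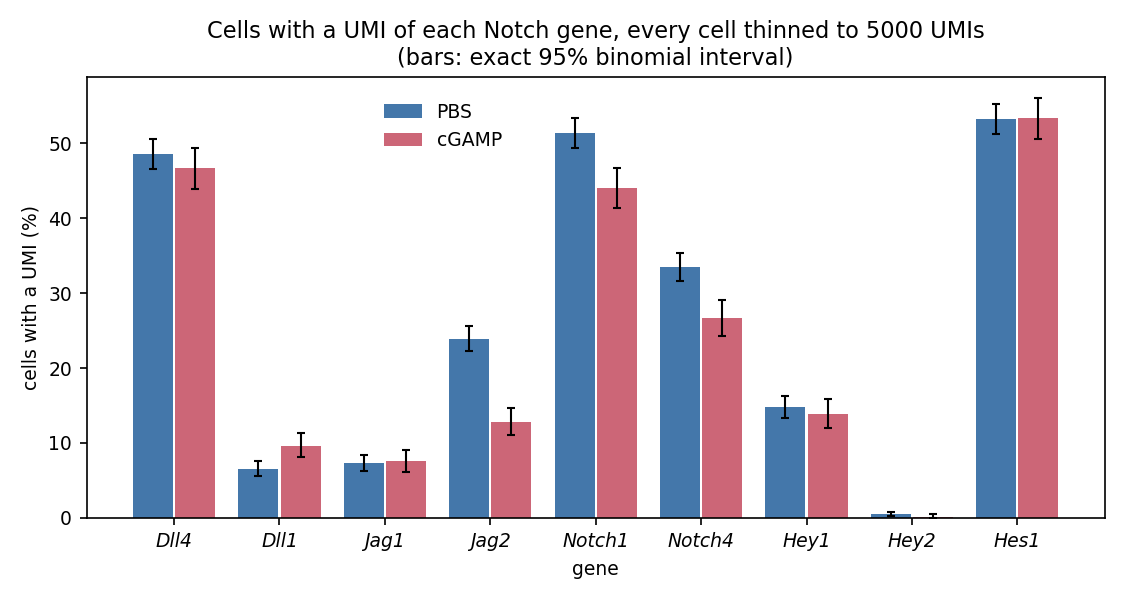
Bars from 0 give the percentage of ECs with at least 1 UMI of each member (x axis) after thinning every cell to 5000 UMIs, in the PBS library (blue, 2447 cells) and the cGAMP library (red, 1327 cells), with exact 95% binomial intervals. The intervals of Jag2, Notch1, Notch4 and Dll1 do not overlap between the libraries, and those of Dll4, Jag1, Hey1, Hey2 and Hes1 do, while 27.9% of the 9509 counted genes have intervals that do not overlap. Those genes were not matched to the members in level.

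A further 55 genes of the pathway were listed by role, of which 54 were in the files and 39 reached 5 CPM in either library. Of these, 3 were at least 1.5-fold higher in the cGAMP library (background 4.53%) and 1 at least 1.5-fold lower (background 7.41%), while 15 lay above and 24 below a ratio of 0. Of all 9509 genes 59.6% lay below 0, and with median-of-ratios scaling the list split into 19 above and 20 below. Their median log2 ratio was -0.09, against -0.08 for all genes, so the list did not stand apart.

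The 3 higher genes were Egfl7, a secreted EC protein reported to bind Notch receptors, with 1182 CPM in the PBS library and 2122 CPM in the cGAMP library, Myc, a growth regulator, with 25.4 and 42.2 CPM, and Cdkn1a, the cell cycle inhibitor p21, with 241.2 and 388.9 CPM. Myc and Cdkn1a answer to many pathways besides Notch. The lower gene was Tle3, a co-repressor that works with Hes proteins, with 45.1 and 29.3 CPM. The genes nearest to no change were the co-repressor gene Tle4 and the co-activator gene Maml1, with log2 ratios of 0.0025 and 0.0053.

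Of the genes that process ligands and receptors, the γ-secretase genes Psenen and Ncstn were at 0.27 and 0.15, and Adam10, which makes the first cut of the receptor, was at -0.47. Rbpj, the DNA-binding partner of the receptor's inner part, was at -0.14. Nrarp, a target that feeds back on the receptor's inner part, had 151.8 and 121.6 CPM, a log2 ratio of -0.32, nearer to the ratios of the receptors than to that of Hes1. Notch2 and Notch3 had 0.793 and 1.11 CPM in the PBS library and 0.978 and 0.663 CPM in the cGAMP library, below the level needed to be counted.

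**Figure D5:**
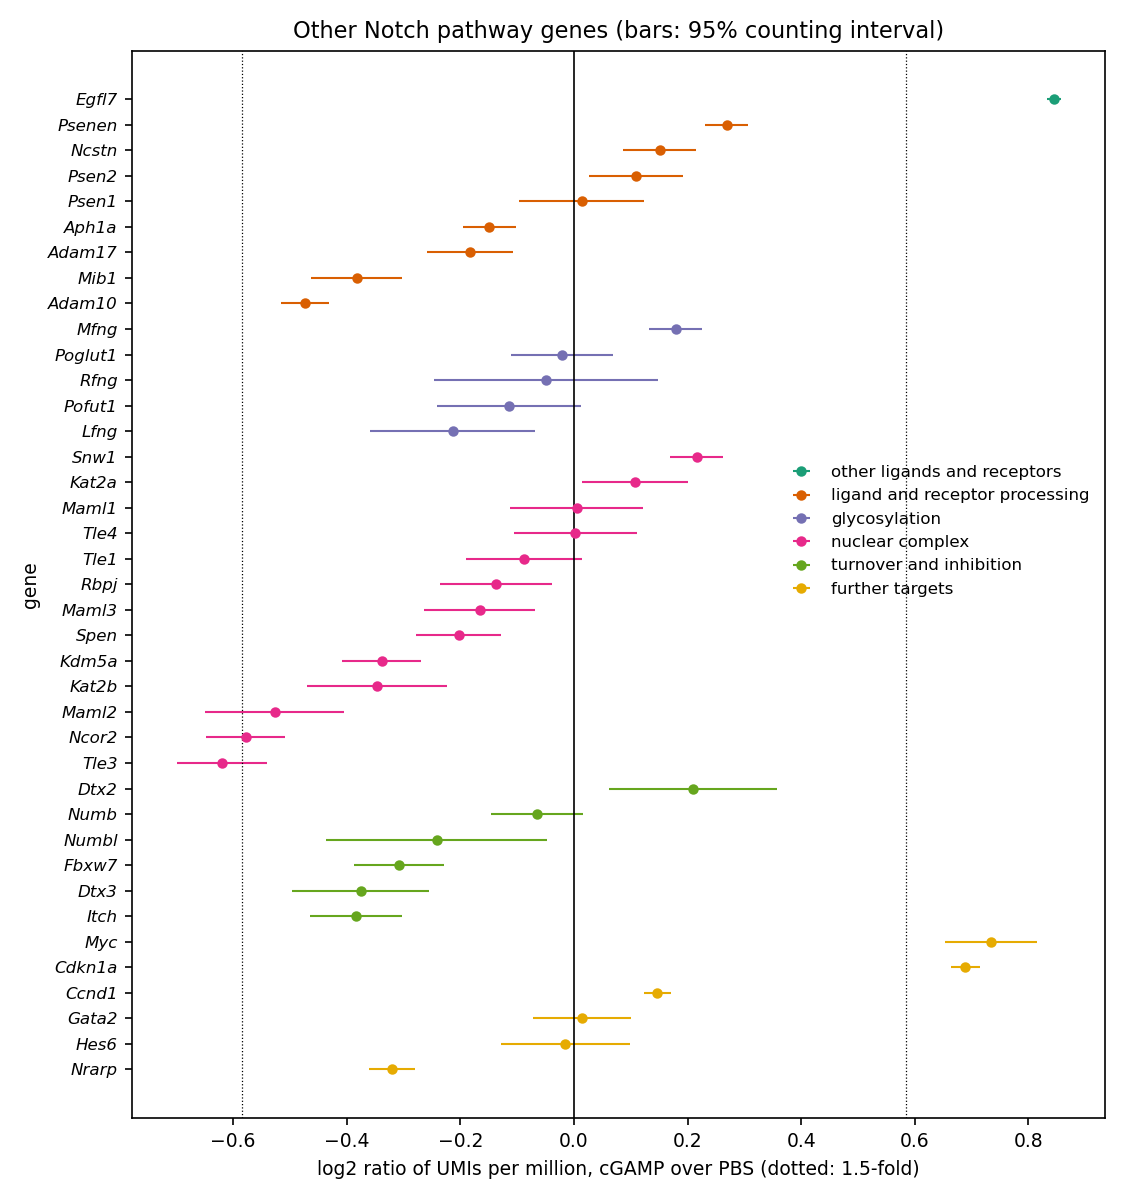
The log2 ratio of CPM in the cGAMP library over the PBS library (x axis) is drawn for the 39 counted pathway genes (y axis), coloured by role, with 95% counting intervals and dotted lines at 1.5-fold. Egfl7 at 0.85, Myc at 0.73, Cdkn1a at 0.69 and Tle3 at -0.62 lie beyond the dotted lines, and 24 of the 39 points lie left of 0.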

How the data were processed

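Single-cell RNA was measured with the 10x Genomics 3' platform (the labels name a version 2 kit and the methods a later version) in 1 PBS and 1 cGAMP library. Per the labels, the authors used Cell Ranger 3.0.0 on mm10 and Seurat 3.1.1. They kept cells with at least 500 genes and at most 10% mitochondrial UMIs, genes found in at least 3 cells, and clusters with Pecam1. The values the authors deposited are natural log values, ln(1 + x) with x a gene's UMIs scaled to 10000 per cell, where raw counts had been assumed when the tests were planned. UMI counts were recovered from them, with 100% of nonzero values landing on a whole number (tolerance 0.01).

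UMIs were summed over cells and given as CPM, with exact Poisson intervals, ratio intervals from the exact binomial, and exact binomial intervals for shares of cells, all at 95%. Shares used cells thinned to 5000 UMIs, which dropped 70 shallower cells (PBS) and 13 (cGAMP), or to 10000 UMIs, which left out 182 and 56. With 1 library each, a gene was called at 1.5-fold among genes of at least 5 CPM in either library. The ratio step was tested on simulated counts of 9509 genes, where 91.5% of 200 changed genes came within 0.1 of the log2 ratio set and 100% had the right sign.

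Clustering used Seurat 5.3.0 (R 4.3.3) (2500 variable genes, integration anchors, 30 principal components, Louvain resolution 0.5). The members, the Notch list and genes 2-fold different between libraries were left out, which kept 1784 variable genes. A cluster was named where at least 3 markers of a class were raised 2-fold (5 CPM added) and more of them stood among its 10 leading genes than of any other class. No doublets were removed, and rebuilt states need not be those of the study. Named genes were the 9 members, pathway genes past 1.5-fold and the 2 nearest to no change, and for each member of at least 20 CPM the 3 genes with the highest Pearson r of log2(CPM + 1) over states of at least 30 cells. The members and lists were chosen with earlier results of these data known. Other values named from the pathway list were chosen after they were seen. Gene positions are from GENCODE vM21 (GRCm38) and promoters from RefSeq (GRCm38.p6), with 7 of the 9 members matched. Alternatives were other scalings, cell filters, thinning, other clusterings and filters on low values.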

Additional observations from a re-analysis of the deposited data

Results flagged for a closer look

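In 5 members the ratio of cGAMP over PBS lay on opposite sides of 0 in different states, each with a counting interval clear of 0, as did 11.6% of the 9509 counted genes. Counting intervals are narrower for genes with more UMIs, and the 9509 genes were not matched to the members in level. The count of members and that share are therefore not like for like. The differences between states were not tested, since each rests on 1 library per condition. For Dll4, the log2 ratio was 0.61 in stalk-like ECs and -1.48 in the Igfbp5/Ctsh cluster, 2.09 apart, and the latter was -0.75 and not clear of 0 without the top cell of each library. For Dll1, it was 1.17 in Gal/Chga tip-like ECs and -0.52 in the Igfbp5/Ctsh cluster, 1.69 apart. For Notch4, it was 0.54 in stalk-like ECs and -1.23 in the Igfbp5/Ctsh cluster, from 29 and 17 UMIs, 1.76 apart, and the latter was -0.71 and not clear of 0 without the top cell of each library. For Hey1, it was 0.67 in S-phase proliferative-like ECs and -0.61 in Lpl/Gja4 arterial-like ECs, 1.29 apart. The shares of cells with a Hey1 UMI at equal depth overlapped between the libraries in both of these states. For Hes1, it was 0.18 in Gja5/Nts arterial-like ECs and -0.77 in Bnip3/Ankrd1 tip-like ECs, 0.95 apart.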

How the results depend on the processing

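No paired analysis was possible because each condition is 1 library. The count of members at least 1.5-fold higher fell from 1 to 0 with state proportions held equal, with thinning to 5000 UMIs and with a filter at 20 CPM, which leaves 6 members and not Dll1. The count of members at least 1.5-fold lower went from 1 to 2 with no filter beyond 1 UMI, which lets in Hey2. The count of other pathway genes at least 1.5-fold lower, 1, became 0 with median-of-ratios scaling, 2 with cells of at most 5% mitochondrial UMIs, 2 without the proliferative-like cells and 5 with no filter, over 53 genes. Of 81 alternative values of the members' ratios 75 kept their direction, and the 6 that did not were of Dll4, Jag1, Hey1 or Hes1. Of 128 ratios within classes 120 kept theirs. Of the 8 that did not, 6 were within stalk-like ECs without integration, where Dll4 turned to -0.69, Hey1 from 0.04 to -1.95, Jag1 to -0.37, Notch4 to -0.11, Dll1 to 0.18 and Hes1 to 0.13. The others were Jag1 within stalk-like ECs at resolution 0.3 (-0.13) and Hey1 within arterial-like ECs at resolution 1.2 (-0.42), and the cause was not tested. Leaving out the top cell of each library in each state, also chosen after seeing the data, turned 1 of 63 state ratios, Dll1 in Bnip3/Ankrd1 tip-like ECs, from 0.61 to -0.22. Median-of-ratios scaling moved the median of all genes from -0.08 to 0. Leaving out the Igfbp5/Ctsh cluster or cells with 10 or more leucocyte marker UMIs was chosen after seeing the data and changed no call. The border of the small Bnip3/Ankrd1 cluster also moved with the rounding of the numerical library, so its values are the least firm. Depth limits Hey2, Dll1 and Jag1 and every value of a cluster of fewer than 100 cells.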
